A study of Mus musculus with 12 samples.

Results

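The genes described here make reactive oxygen and nitrogen species in the mouse colon, or remove the peroxide that follows. They are the NADPH oxidase gene Nox1 with its partners Noxo1 and Noxa1, the oxidase Nox4, the dual oxidase Duox2 with its maturation factor Duoxa2, the phagocyte oxidase subunit Cybb, the inducible nitric oxide synthase Nos2, and the glutathione peroxidase Gpx2. Members were chosen by gene symbol: every non-control probe that carried 1 of the 9 symbols was taken. Of the 9 genes, 8 had a probe (10 probes in all, of 41174 non-control probes), and 7 could be tested among 18947 genes. No probe was matched to Duox2, and both probes of Nox4 stayed below the detection limit on all 12 arrays.

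The tissue was epithelium of the distal colon and rectum from female mice of the BALB/c strain, 5 to 7 weeks old at the start and sampled at day 100, and its RNA was measured on 12 one-colour Agilent arrays, 3 in each of 4 groups. Azoxymethane (AOM) is a colon carcinogen, and dextran sodium sulfate (DSS) is a detergent-like polymer that injures the colon lining when mice drink it. The AOM/DSS group received AOM once, at 12.5 mg/kg by intraperitoneal injection on day 1, and then DSS in the drinking water from day 5, for 5 days of each 21-day cycle over 3 cycles. The AOM group received 10 mg/kg once a week, 6 times from day 1, so that neither the dose nor its schedule matched the AOM/DSS group. The DSS group drank DSS on the same schedule and received no AOM. The control group received neither agent as far as the labels go. AOM/DSS samples were neoplasms clipped into an RNA storage solution, whereas the other 3 groups gave scraped epithelium kept in Trizol, so that tissue, handling and treatment cannot be told apart in any comparison with AOM/DSS. The arrays lay on 3 slides: the controls with AOM/DSS replicate 3, the DSS arrays with AOM replicate 3, and the other AOM and AOM/DSS arrays together. DSS thus shared no slide with control or AOM/DSS, and AOM shared none with control. Slide and treatment cannot be told apart in those comparisons. Whether the 3 replicates of a group were separate mice is not stated in the sources used here, so the p-values reflect only how far these samples vary, part of which may be technical.

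NADPH oxidases carry electrons across a membrane to oxygen and release superoxide or hydrogen peroxide. Nox1 is the main form in colon epithelium and works with the organiser Noxo1, the activator Noxa1 and the membrane partner Cyba, whereas Cybb (also called gp91phox or Nox2) does the same work in phagocytes with Cyba, cytosolic subunits such as Ncf1 and Ncf4, and a Rac protein. Duox2 releases hydrogen peroxide at the epithelial surface and needs Duoxa2 to leave the endoplasmic reticulum. Nos2 makes nitric oxide from arginine during inflammation, and Gpx2 is the gastrointestinal form of glutathione peroxidase, which reduces peroxides in epithelial cells.

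The RefSeq promoter windows of Gpx2, Nox1 and Duoxa2 are shown because these genes differed between groups; the table used has no entry for Nos2, which also differed. Each window runs from 250 bases before to 50 bases after an annotated start of the gene, 5′ to 3′ along the gene, in build GRCm38.p6. The array files name build mm9, and no coordinate was carried between the builds. The windows lie at chr12:76795505-76795804 on the minus strand for Gpx2, chrX:134111805-134112104 on the minus strand for Nox1 and chr2:122298650-122298949 on the plus strand for Duoxa2. The Nox1 window lies inside the span listed for the gene, chrX:134086421-134137711, so it surrounds an internal start and not the outermost one. Capitals mark matches, on either strand, to 5 short motifs: CTTTGA (TCF), TGACNNNGC (antioxidant response element), TTCNNNGAA (STAT), GGGNNNNNCC (NF-kappaB) and TGANTCA (AP-1).
Gpx2: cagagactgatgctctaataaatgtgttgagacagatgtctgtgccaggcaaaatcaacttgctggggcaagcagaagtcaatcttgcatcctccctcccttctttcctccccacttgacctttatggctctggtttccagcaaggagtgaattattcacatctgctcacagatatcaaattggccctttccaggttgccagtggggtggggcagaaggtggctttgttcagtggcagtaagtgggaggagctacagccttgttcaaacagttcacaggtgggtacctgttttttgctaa
Nox1: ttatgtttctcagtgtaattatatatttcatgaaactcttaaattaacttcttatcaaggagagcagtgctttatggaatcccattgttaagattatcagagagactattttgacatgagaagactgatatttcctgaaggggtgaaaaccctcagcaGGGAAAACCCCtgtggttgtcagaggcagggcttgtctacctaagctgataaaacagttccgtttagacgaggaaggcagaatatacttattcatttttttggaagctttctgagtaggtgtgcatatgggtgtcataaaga
Duoxa2: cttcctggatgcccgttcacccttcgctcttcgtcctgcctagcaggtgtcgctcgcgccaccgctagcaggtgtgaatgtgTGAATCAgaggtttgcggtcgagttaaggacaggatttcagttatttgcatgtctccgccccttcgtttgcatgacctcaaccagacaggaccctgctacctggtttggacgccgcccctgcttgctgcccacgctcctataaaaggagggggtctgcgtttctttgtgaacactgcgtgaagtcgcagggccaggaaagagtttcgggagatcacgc
The Gpx2 window held none of the 5 motifs. The Nox1 window held overlapping NF-kappaB matches, a motif that stands in 50.8% of the 32851 promoter windows of the same length. The Duoxa2 window held an AP-1 match, found in 7.81% of all windows; the TCF, antioxidant response and STAT motifs were found in 16%, 12.4% and 8.3%. These matches describe letters in the window and are not evidence of binding.

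All levels below are scaled log2 intensities, log2 of a probe's intensity minus that of the array's 75th percentile, so that a level of 0 is the 75th percentile and a difference of 1 means 2 times the intensity. The 75th percentile lay between 1115 and 1185 intensity units on the AOM/DSS arrays and between 393 and 694 on the others, and 62.6% to 66.2% of probes against 52% to 59.3% were well above background. Differences were tested with limma and called at a Benjamini-Hochberg adjusted p under 0.05 over all 18947 genes. Epithelial markers (Krt8, Krt19 and others) were well above background in every group, with a list mean of 5.25 to 5.43 in AOM/DSS and 5.98 to 6.88 in the other groups, and 8 markers of mature absorptive colonocytes averaged -0.45 to 1.08 in AOM/DSS and 3.51 to 5.73 elsewhere. Control replicates 1 and 2 stood apart from the other 10 arrays in low macrophage, fibroblast and endothelial markers, and the list mean of exocrine pancreas markers was 1.71, -1.11 and 6.24 on the control arrays and 3.53 on DSS replicate 1, against -4.71 to -2.64 on the other 8 arrays.

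Across the 7 tested genes, Gpx2 and Nos2 were higher in AOM/DSS than in control, Gpx2 was also higher in AOM than in control, and Nox1 was higher in AOM/DSS than in AOM or DSS. Duoxa2 went the other way, with its highest level in DSS and a lower level in AOM/DSS. Noxo1, Noxa1 and Cybb passed the threshold in no comparison. In AOM/DSS against control 2 of the 7 were called, both higher, where 34.7% of all genes tested were called, and the median log2 difference of the 7 was 1.52 against 0.03 over all genes. In AOM against control 1 of the 7 was called, higher, where 32.4% of all genes were called, with medians of 0.68 and -0.01. In DSS against control limma called 0 of the 7, where 0.327% of all genes were called, with medians of 0.82 and -0.02. Before adjustment 3 of the 7 had a limma p under 0.05. The share of all genes at that unadjusted level was not computed, so no excess can be read from this count. The comparison of AOM/DSS against AOM had 1 call, Nox1 higher, beside 37.2% of all genes. Against DSS, 2 were called higher in AOM/DSS and 1 lower, beside 35.9% of all genes. In DSS against AOM limma called 0 of the 7, beside 0.0106% of all genes. Before adjustment 1 of the 7 had a limma p under 0.05, again without a share of all genes to set beside it. A test for any difference among the 4 groups called 3 of the 7 (Duoxa2, Nos2 and Gpx2), beside 52.6% of all genes. The members' share was larger than that of all genes only in AOM/DSS against DSS, where it was 3 of 7. Over all genes the share of calls that were higher was 49.7% in AOM/DSS against control, against 39.7% with another background correction (normexp) and 39.1% with arrays scaled to their median. In AOM/DSS against AOM and DSS it was 52.4% and 49.2%, against 41% and 36.2% under normexp and 33.7% and 35.2% under median scaling, and in AOM against control 45.7%, against 57% under normexp. The 3 comparisons with control share the same 3 control arrays, and their values are given side by side without a further comparison.

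**Figure D1:**
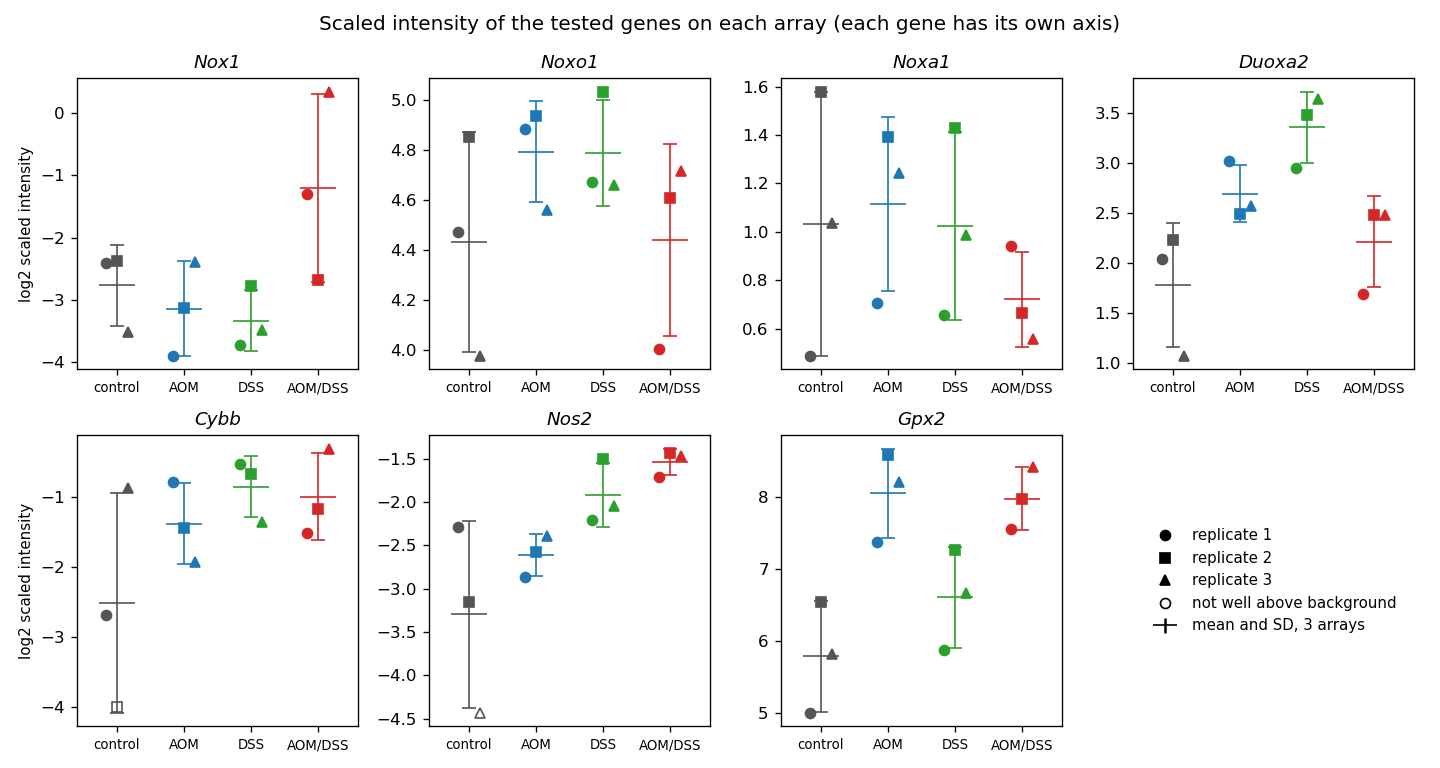
Scaled log2 intensity of the 7 tested genes on each of the 12 arrays, by group; symbols are replicates, open symbols are arrays where the probe was not well above background, and bars are the mean and SD of 3 arrays. Gpx2 is high in both AOM and AOM/DSS, Duoxa2 peaks in DSS, and the 3 AOM/DSS values of Nox1 run from -2.67 to 0.34.

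**Figure D2:**
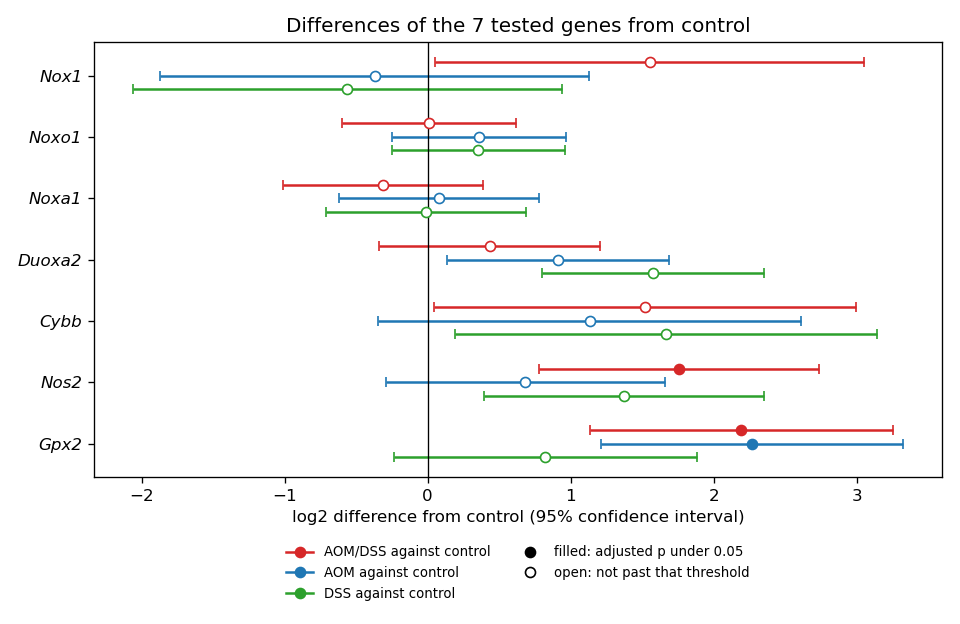
Log2 difference of each gene from control with its 95% confidence interval from limma, for the 3 treated groups; filled points have an adjusted p under 0.05. The filled points are Nos2 in AOM/DSS and Gpx2 in AOM/DSS and AOM.

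Nox1 is the catalytic subunit of the colon epithelial oxidase. Its levels were -2.41, -2.37 and -3.51 on the control arrays, -3.90, -3.12 and -2.39 on the AOM arrays, -3.73, -2.78 and -3.48 on the DSS arrays and -1.29, -2.67 and 0.34 on the AOM/DSS arrays. AOM/DSS replicates 1 and 3 lay above every other array, while AOM/DSS replicate 2 lay within the range of the control and AOM arrays and just above the DSS arrays. The group means ± SD (n = 3) were -2.77 ± 0.65 in control, -3.14 ± 0.75 in AOM, -3.33 ± 0.49 in DSS and -1.21 ± 1.51 in AOM/DSS, so the spread was widest where the mean was highest. In bulk tissue a higher share of cells that express a gene and more RNA per cell cannot be told apart, here and in every result below.

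Nox1 rose in AOM/DSS against DSS by 2.12 ± 0.68 on the log2 scale (4.34-fold; value ± SE; limma adjusted p = 0.034) and against AOM by 1.93 ± 0.68 (3.8-fold; adjusted p = 0.046). Against control the difference was 1.55 ± 0.68, with a 95% interval of 0.05 to 3.05 and an adjusted p of 0.10. The 3 other group means lay within 0.56 of each other, and none of those neighbours differed beyond their spread. The limma F test for any difference among the 4 groups did not call Nox1 (adjusted p = 0.065). Both pairwise calls rest on few arrays: of the 12 fits that left out 1 array, 9 lost the call against AOM and 4 that against DSS. Without AOM/DSS replicate 3 the difference was 1.15 from AOM (adjusted p = 0.15) and 1.34 from DSS (adjusted p = 0.10). Without AOM/DSS replicate 2 the difference from control became 2.29 (adjusted p = 0.022). The controls shared a slide only with AOM/DSS replicate 3, the highest array, so the difference from control of 3.1 with the slide as a block (adjusted p = 0.024) rests on that 1 AOM/DSS array; without that array, and with no block, the difference was 0.78 (adjusted p = 0.34). With another background correction (normexp) the differences of AOM/DSS from control, AOM and DSS were 0.31, 1.15 and 0.69 (adjusted p = 0.77, 0.34 and 0.53). The calls against AOM and DSS were also lost under median scaling (adjusted p = 0.089 and 0.058), quantile normalization (0.096 and 0.059) and the slide block (0.091 and 0.14).

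For the Nox1 partners Noxo1 and Noxa1, no difference passed the threshold in any comparison. Noxo1, which organises the complex at the membrane, had levels of 4.47, 4.85 and 3.97 in control, 4.88, 4.93 and 4.56 in AOM, 4.67, 5.03 and 4.66 in DSS and 4.0, 4.61 and 4.71 in AOM/DSS. All 4 groups overlapped, the 6 pairwise differences ran from -0.35 to 0.36, and the smallest adjusted p was 0.32. The 95% interval of AOM/DSS minus control ran from -0.60 to 0.62.

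Noxa1, which activates the complex, had levels of 0.49, 1.58 and 1.04 in control, 0.71, 1.39 and 1.24 in AOM, 0.65, 1.43 and 0.99 in DSS and 0.94, 0.66 and 0.56 in AOM/DSS. AOM/DSS had the lowest mean (0.72 ± 0.20, SD, n = 3), but its arrays overlapped those of every other group. The 6 differences ran from -0.39 to 0.08, with a smallest adjusted p of 0.34, and the interval of AOM/DSS minus control was -1.01 to 0.38. Neither Noxo1 nor Noxa1 was called in any of the 6 comparisons under any of the 24 alternative settings. Nox4, an oxidase that works without organiser proteins, had 2 probes, each well above background on 0 of 12 arrays, at intensities of 6.43 to 28.3 and 4.20 to 14.7 units, so no level or difference is given for it.

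Duoxa2, which lets Duox2 leave the endoplasmic reticulum, had levels of 2.04, 2.23 and 1.07 in control, 3.02, 2.49 and 2.57 in AOM, 2.95, 3.48 and 3.64 in DSS and 1.69, 2.48 and 2.48 in AOM/DSS. All 3 DSS arrays lay above all control and AOM/DSS arrays, all AOM arrays lay above all control and AOM/DSS arrays, and DSS and AOM overlapped. The means ± SD (n = 3) fell in the order DSS 3.36 ± 0.36, AOM 2.69 ± 0.28, AOM/DSS 2.21 ± 0.45 and control 1.78 ± 0.62.

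Duoxa2 fell by 1.14 ± 0.35 in AOM/DSS against DSS (2.21-fold lower; limma adjusted p = 0.029), the single member called lower in any comparison. AOM/DSS and DSS shared no slide. The difference of DSS from control was 1.58 ± 0.35 (adjusted p = 0.08), of AOM from control 0.91 ± 0.35 (adjusted p = 0.067) and of AOM/DSS from control 0.43 ± 0.35 (adjusted p = 0.37). The neighbours in the order did not differ beyond their spread: DSS minus AOM was 0.66 ± 0.35 (adjusted p = 0.4) and AOM/DSS minus AOM -0.48 ± 0.35 (adjusted p = 0.29). The call was lost without DSS replicate 2, DSS replicate 3 or AOM/DSS replicate 1 (difference -1.08, -1.0 and -0.88), and under normexp (-0.72, adjusted p = 0.22), quantile normalization (-0.87, adjusted p = 0.051) and the slide block (-1.45, adjusted p = 0.24), while without DSS replicate 1, where pancreatic markers were high, the difference of DSS from control was 1.78 (adjusted p = 0.015). Duox2 itself was not measured here; it lies next to Duoxa2 in the genome, on the opposite strand.

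Cybb is the catalytic subunit of the phagocyte oxidase, found in macrophages, neutrophils and B cells. Its brighter probe had levels of -2.68, -3.99 and -0.86 in control, -0.77, -1.43 and -1.92 in AOM, -0.52, -0.66 and -1.35 in DSS and -1.50, -1.17 and -0.30 in AOM/DSS. Control replicates 1 and 2 lay below all other arrays, and control replicate 3 lay among the treated ones. The second probe was dimmer and not well above background on control replicates 1 and 2 and AOM replicate 3; its differences from control were 1.04, 1.25 and 1.55 in AOM/DSS, AOM and DSS, with none called.

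The differences of Cybb from control were 1.52 ± 0.67 in AOM/DSS (limma adjusted p = 0.10), 1.13 ± 0.67 in AOM (adjusted p = 0.2) and 1.67 ± 0.67 in DSS (adjusted p = 0.2), so none passed. Without control replicate 3 all 3 passed, at 2.35, 1.96 and 2.49 (adjusted p = 0.0059, 0.019 and 0.017), and without control replicates 1 and 2 the 3 became -0.13, -0.52 and 0.015. Under normexp the difference in AOM was -0.038. The 8 macrophage markers tested, of 10 listed (Cd68 had no probe), moved with these arrays: the list mean on the control arrays, in replicate order, was -0.11, -1.31 and 1.24, whereas the 9 treated arrays lay between 1.49 and 2.63. Of the 9 macrophage markers with a probe, Cd163 was below background on every treated array and none was below it throughout control. Fibroblast markers (0.80 and -0.27 against 3.26) and endothelial markers (-4.58 and -4.49 against -1.84) were likewise lower on control replicates 1 and 2 than on control replicate 3. The B cell list mean was -0.97 to 1.22 in control, -1.02 to 3.42 in AOM and 1.94 to 2.48 in DSS. It was lower in AOM/DSS, at -3.70 to -2.19, unlike Cybb. The neutrophil list mean was low on all 3 control arrays, at -5.12 to -4.45. The part of these lists in the Cybb values was not tested.

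**Figure D3:**
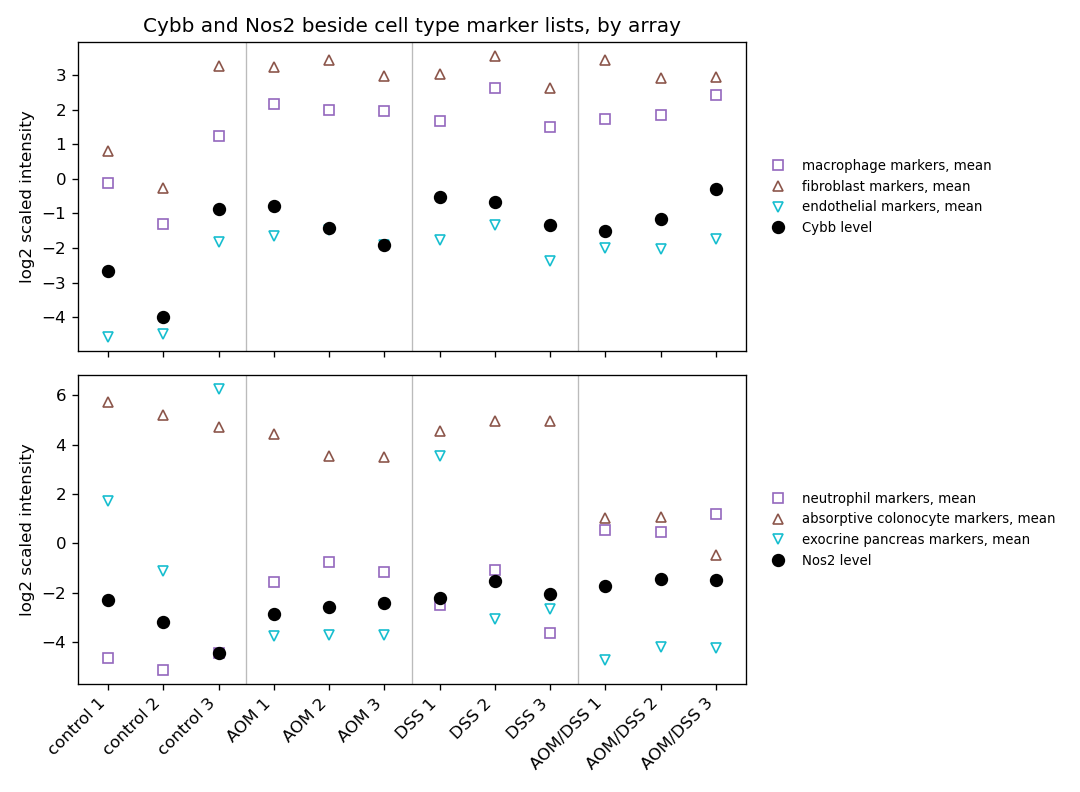
Levels of Cybb (top) and Nos2 (bottom) on each array, as filled circles, beside the mean scaled log2 intensity of cell type marker lists, as open symbols. Cybb and the macrophage, fibroblast and endothelial lists are low on control replicates 1 and 2, and pancreatic markers are highest on control replicate 3 (6.24) and DSS replicate 1 (3.53), with control replicates 1 and 2 (1.71 and -1.11) above the other 8 arrays.

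Of the partners of Cybb in the phagocyte oxidase, 5 genes were listed and tested. Against control, 1 of 5 rose in AOM/DSS and 0 fell (34.7% of all genes were called), with a median difference of 0.26 against 0.03 over all genes; in AOM against control 2 of 5 rose and 0 fell (32.4% of all genes were called), with a median of 1.42 against -0.01; and in DSS against control 0 of 5 were called, with a median of 1.61 against -0.02. Cyba, the membrane partner shared with Nox1, rose by 1.27 ± 0.27 in AOM/DSS (limma adjusted p = 0.0056) and by 1.68 ± 0.27 in AOM (adjusted p = 0.0056), and its difference in DSS was 1.10 (adjusted p = 0.11). Its 3 control arrays ran from 1.57 to 2.06, below the 9 treated arrays, which ran from 2.35 to 3.74. Ncf4, a regulatory subunit, rose by 1.89 ± 0.57 in AOM (adjusted p = 0.03), and its difference was 0.58 in AOM/DSS (adjusted p = 0.47; -0.19 without control replicates 1 and 2).

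Nos2 had 1 probe, spotted 10 times on each array. Its levels were -2.29, -3.16 and -4.44 in control, -2.86, -2.58 and -2.39 in AOM, -2.21, -1.50 and -2.05 in DSS and -1.72, -1.43 and -1.47 in AOM/DSS. All AOM/DSS arrays lay above all control and AOM arrays and overlapped those of DSS; all DSS arrays lay above all AOM arrays and above the highest control by a small margin. The SD among spots of an array was 0.10 to 0.39, smaller than the SD of 1.08 among the 3 control arrays. On control replicate 3 only 1 of the 10 spots was well above background, against all 10 on each other array; 2 of the 120 spots were flagged as outliers and left out.

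Nos2 rose in AOM/DSS against control by 1.76 ± 0.44 (3.38-fold; limma adjusted p = 0.012), from a mean of -3.30 ± 1.08 to -1.54 ± 0.15 (SD, n = 3). DSS followed in order, at -1.92 ± 0.37, and differed from control by 1.37 ± 0.44 (adjusted p = 0.16); AOM was at -2.61 ± 0.24 and differed by 0.68 ± 0.44 (adjusted p = 0.24). Among the treated groups AOM/DSS minus AOM was 1.07 ± 0.44 (adjusted p = 0.077), AOM/DSS minus DSS 0.38 ± 0.44 (adjusted p = 0.51) and DSS minus AOM 0.69 ± 0.44 (adjusted p = 0.47). With normexp the difference of AOM/DSS from control was 0.12 (adjusted p = 0.88), that of AOM from control -0.48 and AOM/DSS minus DSS -0.16; with the slide as a block AOM/DSS minus control was 1.82 (adjusted p = 0.12). The rise from control was called without each array in turn.

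Of 8 neutrophil markers with a probe, 6 were tested. Higher calls against control numbered 6 in AOM/DSS and 5 in AOM, where 17.3% and 14.8% of all genes were called higher (2 markers in each under normexp). In DSS against control 0 were called, where 0.327% of all genes were called. Like Nos2, the list was highest in AOM/DSS and lowest in control, but AOM and DSS stood in another order. The median array of the list was at -1.14 in AOM and -2.48 in DSS, whereas the mean of Nos2 was higher in DSS than in AOM (difference not called). Mmp8 passed the filter only through AOM/DSS, and Csf3r, Cxcr2 and Mmp9 only through AOM and AOM/DSS. These are the groups where they were high, so their places in the counts of higher calls are no support. The mean of the 6 tested markers was -5.12 to -4.45 in control, -1.56 to -0.77 in AOM, -3.62 to -1.07 in DSS and 0.46 to 1.19 in AOM/DSS. Of the 8 with a probe, Mmp8, Csf3r, Mmp9, Ngp and Camp were below background on every control array, and so was the tested probe of Cxcr2. The part of these markers in the Nos2 values was not tested.

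Genes that feed or compete with nitric oxide synthase were a list of 8, of which 7 were tested. Against control, 1 rose and 1 fell in AOM/DSS (median 0.44), in AOM against control 3 rose and 0 fell (median 0.60), and in DSS against control 0 were called (median 0.93); the shares of all genes called were 34.7%, 32.4% and 0.327%. Arg1, which uses up the same arginine, was not well above background on any control array. It rose at least 23.4-fold in AOM/DSS (limma adjusted p = 0.00058) and at least 11.1-fold in AOM (adjusted p = 0.0059); these bounds set the treated mean against the lowest signal that counts as well above background on the control arrays. Under normexp its differences were 2.32 and 1.41 (adjusted p = 0.0625 and 0.196). Gch1, the first enzyme of tetrahydrobiopterin synthesis, rose in AOM by 1.87 ± 0.35 (adjusted p = 0.0072), and its difference in DSS, the smallest adjusted p of the list there, was 1.95 (adjusted p = 0.051). Ass1, which helps rebuild arginine, rose in AOM by 1.76 ± 0.30 (adjusted p = 0.0059), and Spr, the last enzyme of tetrahydrobiopterin synthesis, fell by 0.75 ± 0.22 in AOM/DSS (adjusted p = 0.024; -0.17 under normexp, adjusted p = 0.73).

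Among the other family genes, Nos3, the endothelial synthase, was the single one tested of 4 with a probe; Nox3, Duox1 and Nos1 were below background on all arrays. Nos3 rose by 2.39 ± 0.54 in AOM/DSS (limma adjusted p = 0.0068) and by 2.57 ± 0.54 in AOM (adjusted p = 0.01), and its difference in DSS was 1.87 (adjusted p = 0.14), but under normexp the 3 differences were -0.60, -0.33 and -0.17. It was well above background on 1 of 3 control arrays, 2 of 3 DSS arrays and all AOM and AOM/DSS arrays. Nos3 thus passed the filter only through the groups where it was called higher, so its calls and its place in the counts are no support. The endothelial markers were low on the pair of control arrays named above. Of 7 cytokines known to induce these enzymes, 4 were tested, and 2 rose and 0 fell both in AOM/DSS and in AOM (medians 2.65 and 1.66), beside 34.7% and 32.4% of all genes called. Il1a, not called in AOM/DSS, passed the filter only through that group, where its mean was highest, so its part in the medians is no support. Il1b rose by 5.05 ± 0.78 in AOM/DSS (adjusted p = 0.00094) and 3.45 ± 0.78 in AOM (adjusted p = 0.013), but it was well above background on only 1 of 3 control arrays, and under normexp the differences were 2.73 and 1.25 (adjusted p = 0.023 and 0.2). Tnf, well above background on all 12 arrays, rose by 3.54 ± 0.37 (adjusted p = 0.00011) and 2.57 ± 0.37 (adjusted p = 0.0041). In DSS 0 of the 4 were called (median 1.22), with Tnf at 1.84 (adjusted p = 0.069).

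Gpx2 had levels of 4.99, 6.53 and 5.81 in control, 7.37, 8.58 and 8.20 in AOM, 5.87, 7.27 and 6.67 in DSS and 7.55, 7.97 and 8.41 in AOM/DSS. All AOM and all AOM/DSS arrays lay above all control and DSS arrays, AOM and AOM/DSS overlapped, and DSS overlapped control. The means ± SD (n = 3) were 8.05 ± 0.62 in AOM, 7.98 ± 0.43 in AOM/DSS, 6.6 ± 0.70 in DSS and 5.78 ± 0.77 in control. A pseudogene copy, Gpx2-ps1, has its own probe and ran closely with Gpx2, so how far each probe reads the other's transcript is uncertain.

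Gpx2 rose by 2.19 ± 0.48 in AOM/DSS (4.58-fold; limma adjusted p = 0.0058) and by 2.27 ± 0.48 in AOM (4.82-fold; adjusted p = 0.011) against control, and in AOM/DSS against DSS by 1.37 ± 0.48 (2.59-fold; adjusted p = 0.046). That last call was lost in 8 of the 12 fits that left out 1 array, where the adjusted p ran up to 0.13, and under normexp, median scaling and the slide block (adjusted p = 0.063, 0.12 and 0.39). DSS minus control was 0.82 ± 0.48 (adjusted p = 0.33) and DSS minus AOM -1.45 ± 0.48 (adjusted p = 0.24). AOM/DSS minus AOM was -0.07 ± 0.48 (adjusted p = 0.91), with an interval of -1.13 to 0.98, so a difference of that size in either direction is not excluded; it was 0.84 after quantile normalization. With the slide as a block the difference of AOM from control, groups that share no slide, was 2.85 (adjusted p = 0.27), and without control replicates 1 and 2 the differences of AOM/DSS and AOM were 2.16 and 2.24 (adjusted p = 0.065 and 0.15).

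Other genes that remove superoxide and peroxide were a list of 15, all tested. Relative to control, 4 rose and 3 fell in AOM/DSS (median 0.31), in AOM against control 7 rose and 1 fell (median 0.80), and in DSS against control 0 were called (median 0.43). Called genes were thus 7 and 8 of 15 in AOM/DSS and AOM, where 34.7% and 32.4% of all genes were called. Gpx3, a secreted peroxidase, rose by 2.57 ± 0.54 in AOM/DSS (limma adjusted p = 0.0048) and by 2.38 ± 0.54 in AOM (adjusted p = 0.013). Prdx6, a peroxiredoxin that also repairs oxidised lipids, fell by 2.97 ± 0.33 in AOM/DSS (adjusted p = 0.00014) and by 1.18 ± 0.33 in AOM (adjusted p = 0.023; -0.56 under normexp, adjusted p = 0.2). Prdx4, a peroxiredoxin of the endoplasmic reticulum, rose by 1.28 ± 0.38 in AOM/DSS (adjusted p = 0.024). Its mean ± SD was no lower in AOM, at 3.16 ± 0.18, than in AOM/DSS, at 2.99 ± 0.49, with DSS at 2.54 ± 0.36 and control at 1.72 ± 0.74. In AOM the extracellular dismutase Sod3 was at least 3.32-fold higher (adjusted p = 0.0083; difference -0.089 under normexp), and Gpx7 rose by 1.81 ± 0.41 (adjusted p = 0.013; 0.67 under normexp, adjusted p = 0.15).

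Of 12 genes of the Nrf2, glutathione and thioredoxin systems, 2 rose and 1 fell in AOM/DSS (median -0.33), 1 rose in AOM (median 0.38) and 0 were called in DSS (median 0.08), beside 34.7%, 32.4% and 0.327% of all genes. Hmox1, which breaks down haem, rose by 2.88 ± 0.69 in AOM/DSS (limma adjusted p = 0.0093), and Slc7a11, the cystine importer, stood at least 3.32-fold higher there (adjusted p = 0.0026; difference -0.37 under normexp). Slc7a11 passed the filter only through AOM/DSS, the group where it was high, so its call and its place in the count are no support. Txn1, the cytosolic thioredoxin, fell by 1.64 ± 0.30 in AOM/DSS (adjusted p = 0.0023; -1.0 under normexp, adjusted p = 0.11), and Nqo1, a quinone reductase, rose by 1.51 ± 0.47 in AOM (adjusted p = 0.033; 0.53 under normexp, adjusted p = 0.26). Of 3 other peroxidases and oxidases tested, Mpo, the neutrophil peroxidase, rose in AOM/DSS by 1.91 ± 0.43 (adjusted p = 0.0064) and in AOM by 2.5 ± 0.43 (adjusted p = 0.0059), but under normexp the differences were -0.43 and 0.14. Lpo, a secreted peroxidase, fell by 3.17 ± 0.36 in AOM/DSS (adjusted p = 0.00017), and Xdh, xanthine dehydrogenase, fell by 1.76 ± 0.56 there (adjusted p = 0.032; -1.17 under normexp, adjusted p = 0.15). In DSS the smallest adjusted p-values of these lists were 0.11 for Gpx3 and Sod3 (differences 2.10 and 2.25, the latter -0.075 under normexp), 0.17 for Nqo1 (1.38) and 0.077 for Mpo (1.95).

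Over the 47 pathway genes tested, 12 rose and 7 fell in AOM/DSS against control, and 17 rose and 1 fell in AOM against control. Over all genes 17.3% were called higher and 17.5% lower in AOM/DSS, and 14.8% and 17.6% in AOM. The pathway genes counted as risen include Nos3 in both comparisons and Slc7a11 in AOM/DSS. Both passed the filter only through groups where they were high, so their places in the counts are no support. Leaving out 1 array lost the call of Spr in 5 of 12 fits, and those of Prdx4 and Xdh in AOM/DSS and of Ncf4, Prdx6 and Nqo1 in AOM in 4 of 12 each. With the slide as a block 5 rose and 3 fell in AOM/DSS, and 0 were called in AOM, which shares no slide with control. Calls also became fewer without control replicates 1 and 2, both among these genes and over all genes, but that setting leaves 1 control array.

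**Figure D4:**
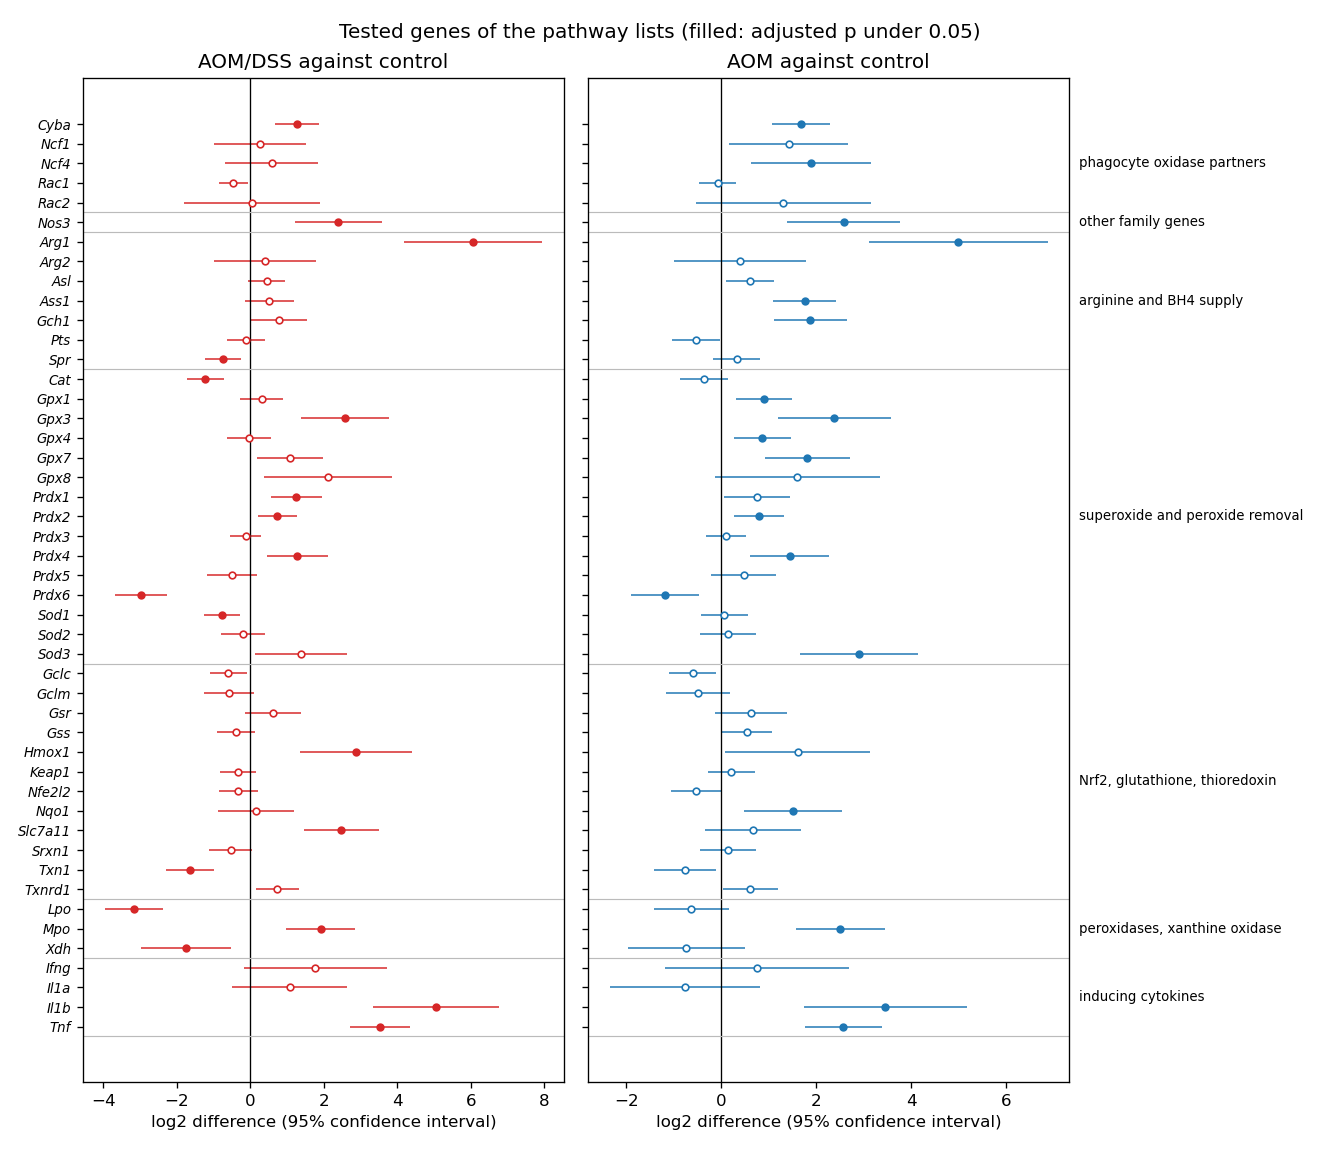
Log2 difference with its 95% confidence interval for the 47 tested genes of the 7 pathway lists, in AOM/DSS against control (left) and AOM against control (right), which share control arrays; filled points have an adjusted p under 0.05. Arg1 and Il1b lie farthest to the right in both panels, and Lpo and Prdx6 farthest to the left in AOM/DSS.

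The genes whose pattern over the 12 arrays was most like each member are given as a description, by Pearson's r over arrays that share slides and groups. Cybb ran closest with Plxnc1 (0.98), Emb (0.98) and Evi2a (0.98), and Gpx2 with E2f7 (0.99), Kif20a (0.98) and Gpx2-ps1 (0.98). Nox1 ran with Prpf38a (0.94), Hprt (0.94) and Rheb (0.90), Noxa1 with Boc (0.94) and St6galnac4 (0.85), and Noxo1 with Hsd17b12 (0.89), Olfr469 (0.85) and Cars2 (0.83). Duoxa2 ran with Adgrf1 (0.89), 9130008F23Rik (0.88) and Sprr2b (0.88), and Nos2 with Khdc1a (0.88), Chn2 (0.88) and Pglyrp1 (0.87). Among the members themselves the highest r was 0.77, between Noxo1 and Duoxa2.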

How the data were processed

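Per the file headers, each deposited scanner file was written by Agilent Feature Extraction 10.7.3.1, and its processed signal is a background-corrected intensity that is not normalized between arrays. The authors' deposited series matrix holds log2 values, quantile normalized as the columns themselves show, and served as an alternative. Processed signals were put on the log2 scale and the 75th percentile of each array was subtracted; control spots and 1173 outlier-flagged spots were left out, and spots of a probe were averaged. Probes were named through RefSeq accessions. Probes had to stand clear of background on the 3 arrays of some group to stay in, and a gene took its kept probe with the highest mean. One limma model (limma 3.58.1, R 4.3.3) covered all 4 groups, with moderated tests and Benjamini-Hochberg adjustment over 18947 genes. The fit was tested on simulated data.

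The members and lists were chosen with earlier results of these data known. All 9 members were named; from each pathway list, up to 3 called genes with the largest difference in AOM/DSS and in AOM against control and up to 2 in DSS, or else the gene with the smallest adjusted p. Alternatives changed the background correction, scaling, normalization, filter, probe choice, slide or replicate block, or left out arrays. Duox2 is not analysed here. Some genes that the rules would name or list are not reported here. The number of arrays limits the precision.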

Additional observations from a re-analysis of the deposited data

How the results depend on the processing

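Against control, the count of members called in AOM/DSS (2 of 7) was 1 with normexp background correction, 1 with a filter on all 12 arrays, which removes Nos2 and Cybb, and 1 without control replicates 1 and 2; the count in AOM (1) was 0 with the slide as a block and 0 without control replicates 1 and 2. In AOM/DSS against AOM the count (1) was 0 under normexp, scaling to the median, the authors' series matrix, quantile normalization, no filter, the slide block and the replicate block. In AOM/DSS against DSS the count (3) was 0 under normexp and the slide block and 1 under median scaling, quantile normalization and the authors' matrix. The test for any difference (3) gave 1 with the slide block. Leaving out each array in turn gave counts of 2 to 3 in AOM/DSS against control, 1 to 2 in AOM against control, 0 to 1 in DSS against control, 0 to 2 in AOM/DSS against AOM, 0 to 3 in AOM/DSS against DSS and 2 to 4 for any difference. Same-numbered arrays of different groups correlated at -0.27 to 0.25 in their deviations (median 0.084), with 8 of 18 pairs over 0.1. Arrays with different numbers correlated at -0.26 to 0.38 (median -0.078), with 9 of 36 pairs over 0.1. These values do not settle whether replicate numbers pair the samples. The replicate block changed no other count of members.

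Of 567 values for single members, 499 kept their direction and side of the threshold, 49 lost the call, 9 gained one and 10 changed sign. The sign changes were Cybb in AOM/DSS against control without control replicates 1 and 2 (-0.13); Cybb in AOM against control under normexp (-0.038) and without control replicates 1 and 2 (-0.52); Nos2 under normexp in AOM against control (-0.48) and AOM/DSS against DSS (-0.16); and Gpx2 in AOM/DSS against AOM under quantile normalization (0.84), the authors' matrix (0.84) and without AOM replicate 2, AOM replicate 3 or AOM/DSS replicate 1 (0.19, 0.00063 and 0.14, in a range of -0.42 to 0.19 over single arrays left out). The cause was not tested. For pathway genes, of 899 values 786 kept both, 86 lost the call, 19 gained one and 8 changed sign: under normexp Nos3 (-0.60, -0.33 and -0.17 in AOM/DSS, AOM and DSS), Slc7a11 (-0.37) and Mpo (-0.43) in AOM/DSS and Sod3 (-0.089 and -0.075 in AOM and DSS), and Ncf4 in AOM/DSS without control replicates 1 and 2 (-0.19). Of their 29 calls, 25 were lost without control replicates 1 and 2 and 22 with the slide block. Leaving out control replicates 1 and 2, and keeping outlier-flagged spots, were chosen after seeing the data; the first leaves 1 control array, assumed to vary like the other groups.

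Over all genes, normexp moved the median difference of AOM/DSS from control to -0.32 and median scaling to -0.12. Calls over all genes fell under normexp to 2765, 1863 and 1 in AOM/DSS, AOM and DSS against control, and to 1262 and 1899 in AOM/DSS against AOM and DSS; with the slide block they were 2208, 4, 2, 2827 and 438. Without a filter they were 13819 in AOM/DSS against control and 13247 against DSS. In DSS against control they were 113 under quantile normalization, 108 with the authors' matrix, 39 unfiltered and 40 with the replicate block. Without control replicates 1 and 2 they were 1600, 15 and 7 in AOM/DSS, AOM and DSS against control. The 2 calls of DSS against AOM were 0 to 4 under the settings that kept all arrays. In DSS against control the 62 calls ran from 1 to 3187 as single arrays were left out. The lowest counts so were 4303 and 1965 in AOM/DSS and AOM against control and 3368 and 3317 in AOM/DSS against AOM and DSS, and the highest in DSS against AOM was 319. Signal near background limits Nos2 and Cybb in control and all of Nox4.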
